A study of Mus musculus with 21 samples.

Results

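The 43 genes described here encode solute transporters and protein uptake receptors of the kidney proximal tubule, and they were given as a list of symbols. Of the 43 symbols, 42 were linked through the symbol table to a gene with counts, against 21004 genes in the raw count table. The remaining gene, Slco1a1, an organic anion transporting polypeptide, was found only by its Ensembl identifier and had 0 to 3 raw counts in every Con and Ade mouse, so it was too low to be compared. They were grouped by what they carry: glucose and other sugars (5 genes), amino acids and peptides (11 genes), organic anions and carnitine (15 genes), carboxylates (4 genes), inorganic ions and vitamin C (5 genes) and filtered protein (3 genes).

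Kidney RNA was sequenced from female apoE knockout mice on a C57BL/6J background, aged 18 weeks. Since apoE is absent from the control mice as well, every group has this genotype. For 14 weeks the mice ate chow (Con, 5 mice), an adenine diet (Ade, 6 mice), which injures the kidney tubules, or the adenine diet with iodomethylcholine (Ade + IMC, 6 mice), which blocks the bacterial enzyme that makes trimethylamine in the gut. A group fed chow with iodomethylcholine was not analysed here. The total count per mouse was 7716126 to 11680809 in Con, 5444833 to 7673215 in Ade and 5728589 to 8305968 in Ade + IMC. Levels are given as CPM, counts scaled to a common library total by the TMM method over all 17 mice.

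The proximal tubule takes back most of the glucose, amino acids, phosphate, bicarbonate and filtered protein that pass the glomerulus, and it secretes organic anions such as urate, drugs and uremic toxins. The sodium gradient kept by the basolateral pump drives many of these carriers. Filtered albumin and vitamin-binding proteins are taken up by megalin (Lrp2) and cubilin (Cubn), which reaches the surface with amnionless (Amn). The segments of the tubule differ: high-capacity glucose and bicarbonate uptake lies early, and high-affinity glucose uptake lies late.

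One start region is shown first, because the transcription factor HNF4 is a known regulator of proximal tubule genes and its gene Hnf4a was measured here too. RefSeq promoters (250 bases before to 50 bases after each start, GRCm38.p6) matched 35 of the 43 members, with 44 promoters in all. The letters CAAAGTCCA, an HNF4 site, searched on both strands, were in 1 of these 44 promoters (2.27%) and in 0.475% of all 32851 promoters. Its shorter core AAAGTCCA, which overlaps it, was in the same 1 promoter and in 1.25% of all. The match is a description of the letters and not of binding. It lies in the promoter of Slc3a1, a subunit of the cystine transporter (chr17:85028281-85028343, plus strand), and is in capitals here.
Slc3a1: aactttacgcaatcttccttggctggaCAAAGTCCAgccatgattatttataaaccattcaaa
The motif begins 39 bases before the start of Slc3a1.

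Per kilobase of exon, the highest level in Con was that of Slc6a18, a brush-border neutral amino acid carrier, at 377 CPM per kb. Slc22a12, the urate transporter URAT1, followed at 322 CPM per kb, Slc3a1 at 295, Slc22a8 at 293 and Lrp2 at 289. At the other end, Slc7a13 was at 0.342 CPM per kb, Slc22a30 at 2.85 and Slc22a28 at 4.70. In Ade the highest level was that of Slc5a10, a sodium mannose and fructose cotransporter, at 134 CPM per kb. Part of the 50-base stretches of some members also lies in other genes, 53.9% for Slc22a28, 38.9% for Slc6a20b, 36.2% for Slc22a30, 36.0% for Slc22a13, 30.1% for Slc1a1, 29.1% for Slc22a12, 27.1% for Slc22a5, 24.8% for Slc3a1, 22.5% for Slc5a2, 18.7% for Slc13a2 and 12% for Slc5a10, so their counts are uncertain.

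With adenine, all 41 of the members that could be tested fell, and 0 rose (edgeR's quasi-likelihood test, adjusted p below 0.1). Over all 14612 genes tested, 32.2% were called lower and 35.1% higher. The median log2 fold change of the members was -1.59, beside 0.02 over all genes, and single members ranged from -3.30 to -0.32. The groups did not overlap in 38 of the 42 members with CPM values, every Ade mouse lying below every Con mouse, which held for 20.6% of all genes tested. The 4 that did overlap were Slc5a10, Slc22a6, Slc13a1 and Slc7a13, the last under the filter on low counts at 0.732 CPM in Con and 0.711 CPM in Ade. In kidney tissue, fewer tubule cells and less RNA per cell cannot be told apart.

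**Figure D1:**
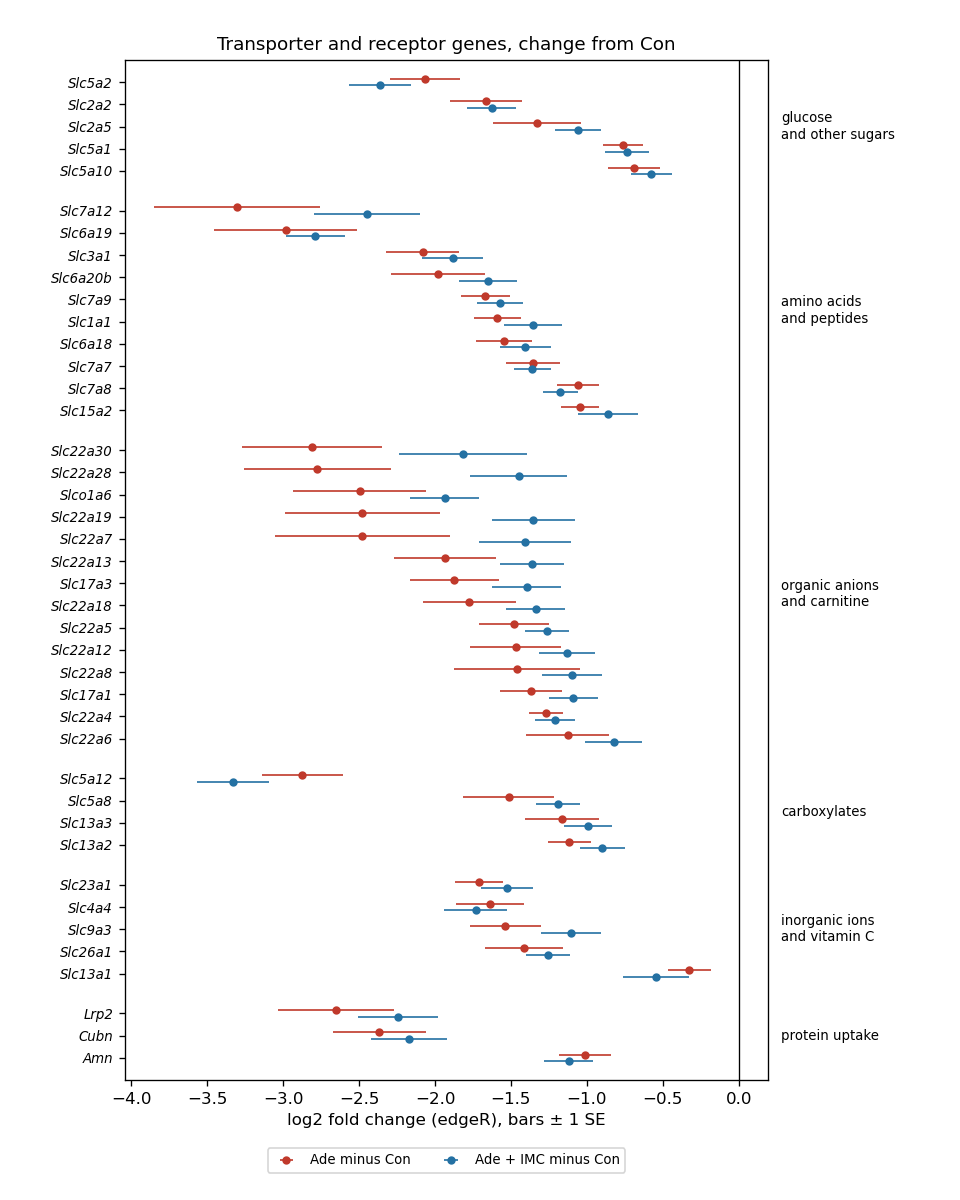
Log2 fold change from Con (horizontal axis, edgeR, bars 1 SE) of 41 members grouped by substrate, Ade in red and Ade + IMC in blue. All points lie below 0. In Ade, Slc13a1 is nearest to it at -0.32 and Slc7a12 farthest at -3.30. Farthest in Ade + IMC is Slc5a12 at -3.33.

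Filtered protein uptake held the member with the most reads. Lrp2, the endocytic receptor megalin, had 6326, 3829, 3767, 6275 and 3922 CPM in the Con mice. In Ade it lay at 364 CPM at the lowest, 578 at the median and 1801 at the highest, and in Ade + IMC at 631, 1020 and 1521. Every mouse on adenine thus lay below every Con mouse. The log2 fold change of Lrp2 was -2.65 ± 0.38 (SE) in Ade (adjusted p = 5.22e-05, edgeR), and the mean in Ade was 15.7% of that in Con. Its partner Cubn fell by 2.37 on the log2 scale. Amn, the membrane anchor of cubilin, fell by 1.01, from 92.7, 88.5, 90.2, 111 and 130 CPM in Con to 37.4, 43.8 and 74.4 (lowest, median and highest) in Ade.

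Among the sugar carriers, Slc5a2, the high-capacity glucose cotransporter SGLT2 of the early tubule, had 265, 251, 257, 320 and 238 CPM in Con. In Ade its lowest, median and highest values were 34.6, 61.6 and 96.9 CPM, and in Ade + IMC 36.2, 47.4 and 82.1 CPM. Both adenine groups lay wholly under the Con mice, and the log2 fold change in Ade was -2.07 ± 0.23 (adjusted p = 6.45e-06, edgeR). The glucose exit carrier Slc2a2 (GLUT2) fell by 1.67 on the log2 scale and the fructose carrier Slc2a5 (GLUT5) by 1.33. Smaller falls were seen for Slc5a1, the high-affinity glucose cotransporter SGLT1 of the late tubule, at -0.76, and for Slc5a10 at -0.69 ± 0.17 (adjusted p = 0.00341, edgeR). Slc5a10 had 423, 539, 511, 512 and 610 CPM in Con, and its values of 233, 277 and 451 CPM (lowest, median and highest) in Ade reached into that range in 1 mouse.

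Carriers of amino acids and peptides included the largest fall of any member. Slc7a12, an amino acid carrier of the late tubule, had 673, 319, 341, 464 and 257 CPM in Con. In Ade it had 10.6, 27.2 and 126 CPM at the lowest, median and highest. Its mean in Ade was 9.99% of that in Con (log2 fold change -3.30 ± 0.55, adjusted p = 1.62e-04, edgeR), and without mouse 407, the highest of the Ade mice, the log2 fold change was -4.08. Slc6a18 had 1758, 1539, 1723, 1530 and 1773 CPM in Con and 403, 494 and 892 CPM in Ade, a log2 fold change of -1.55 ± 0.18. The neutral amino acid carrier Slc6a19 (B0AT1), whose loss causes Hartnup disorder, fell by 2.98. Both chains of the cystine and dibasic amino acid transporter fell, Slc3a1 by 2.08 and Slc7a9 by 1.67. The least changed of the 10 tested was the peptide carrier Slc15a2 (PEPT2), at -1.05 ± 0.13, with 202, 152, 133, 162 and 195 CPM in Con and 67.6, 79.6 and 102 CPM in Ade.

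Of the organic anion and carnitine carriers, 14 of 15 were tested and all 14 fell, with a median log2 fold change of -1.82. Slc22a8, the basolateral exchanger OAT3, had 1013, 945, 1041, 1188 and 1542 CPM in Con. Its lowest, median and highest values were 104, 465 and 766 CPM in Ade. No Ade mouse reached the Con range (log2 fold change -1.46 ± 0.41, adjusted p = 0.00762, edgeR). Slc22a6, the exchanger OAT1, had 692, 483, 507, 775 and 772 CPM in Con and 142, 274 and 541 CPM in Ade, a log2 fold change of -1.13 ± 0.27. One Ade mouse lay within the Con range. The largest fall was in Slc22a30, at -2.81 ± 0.46, from 15.5, 6.21, 5.96, 8.05 and 12.2 CPM in Con to 0.127, 0.917 and 2.84 CPM in Ade. These Ade values rest on only 1 to 21 reads a mouse. Slc22a4 (OCTN1) and the carnitine carrier Slc22a5 (OCTN2) fell by 1.27 and 1.48, and the urate carriers Slc22a12, Slc17a1 and Slc17a3 by 1.47, 1.37 and 1.87.

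Slc5a12, a low-affinity lactate cotransporter, fell more than the other 3 carboxylate carriers. It had 318, 280, 255, 397 and 229 CPM in Con, and 21.1, 37.0 and 60.7 CPM (lowest, median and highest) in Ade. The lowest Con mouse thus stood well above the highest Ade mouse (log2 fold change -2.87 ± 0.27, adjusted p = 1.11e-06, edgeR). Slc13a3, the basolateral dicarboxylate carrier, had 1311, 1330, 1243, 1609 and 1900 CPM in Con and 342, 623 and 1082 CPM in Ade, a log2 fold change of -1.16 ± 0.24. Slc13a2, the brush-border citrate carrier, changed by -1.11 ± 0.14, from 105, 111, 118, 108 and 153 CPM in Con to 42.1, 53.2 and 69.1 CPM in Ade.

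Inorganic ion carriers included the gene that moved least among the 41 tested. Slc13a1, the sodium sulfate cotransporter, had 631, 475, 483, 792 and 694 CPM in Con. In Ade it had 424, 476 and 569 CPM, and 3 of 6 mice lay below every Con mouse. The log2 fold change was -0.32 ± 0.14 with an adjusted p of 0.058 (edgeR), and the call was lost without Con mouse 302 (adjusted p = 0.174), Con mouse 403 (0.123), Ade mouse 208 (0.115) or Ade mouse 408 (0.107), and with upper-quartile scaling (0.101). Slc4a4, the basolateral bicarbonate exit carrier NBCe1, had 1841, 1325, 1105, 2166 and 1271 CPM in Con and 302, 506 and 703 CPM in Ade (log2 fold change -1.64 ± 0.22). The vitamin C carrier Slc23a1 fell by 1.71, from 467, 439, 511, 404 and 532 CPM in Con to 107, 131 and 212 CPM in Ade. Slc9a3, the sodium proton exchanger NHE3, fell by 1.54.

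**Figure D2:**
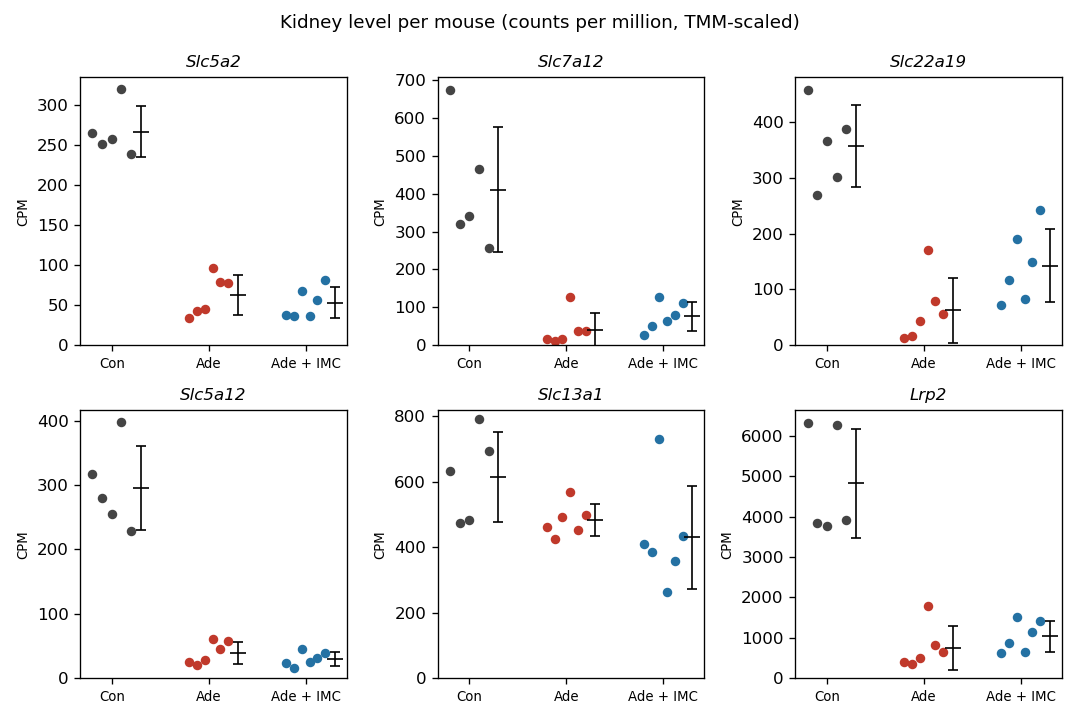
CPM (vertical axis, from 0) of 6 members in each of 17 mice by group, with mean and SD beside the points (the lower bar of Slc7a12 in Ade is cut at 0). Slc13a1 is the only one of these panels where an adenine group overlaps Con, and in Lrp2 and Slc7a12 the highest Ade point is mouse 407, at 1801 and 126 CPM.

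One Ade mouse stood apart. Mouse 407 was the highest of the 6 Ade mice in 41 of 42 members, and its median over the members was 51.0% of the Con mean, against 20.3% to 39.7% in the other 5. In Ade + IMC, mouse 310 was highest in 23 members and mouse 412 in 16, at medians of 50.8% and 52.6% of the Con mean, and mouse 311 was lowest in 28 members, at 24.4%. The ranges of the 2 adenine groups overlapped along most of their length. Without mouse 407 the median log2 fold change in Ade was -1.78, and 41 members were still called lower. The log2 fold changes of the organic anion carriers Slc22a7, Slc22a19 and Slc22a28 went from -2.48, -2.48 and -2.78 with that mouse to -3.11, -3.09 and -3.38 without it.

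**Figure D3:**
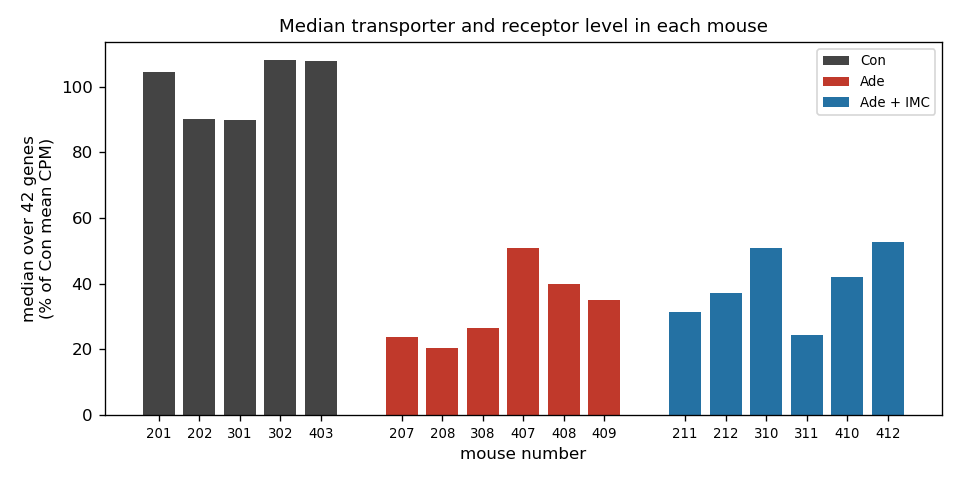
Bars give, for each of the 17 mice, the median over 42 members of the level as a percent of the Con mean. Con mice lie between 89.8% and 108%, Ade mice between 20.3% and 51.0%, and Ade + IMC mice between 24.4% and 52.6%.

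In mice fed adenine with iodomethylcholine, all 41 tested members were again lower than in Con (edgeR, adjusted p below 0.1, 32.3% of 14578 genes lower and 30.9% higher), with a median log2 fold change of -1.35 beside -0.02 over all genes. The groups did not overlap in 34 of 42 members (16.4% of all genes tested). Values ran from -3.33 ± 0.24 for Slc5a12 (adjusted p = 3.27e-07, edgeR) to -0.54 ± 0.22 for Slc13a1 (adjusted p = 0.0489, edgeR). The call of Slc13a1 was lost without Con mouse 302 (adjusted p = 0.129, edgeR) and without Ade + IMC mice 311 and 412 (adjusted p = 0.167, edgeR), each of which left 40 members called. This comparison shares its Con mice with the one for Ade. Slc5a12 stood at 10.2% of its Con mean in Ade + IMC and at 13.4% in Ade, and Slc5a2 at 19.9% and 23.5%. For Slc22a19, an organic anion carrier, the same values were 40.1% and 17.7%, and for Lrp2 21.6% and 15.7%.

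The comparison of Ade + IMC with Ade asks whether the inhibitor altered these genes under adenine. No member differed at an adjusted p below 0.1 (limma on log2 of the normalized count plus 1, 0.0% of 14696 genes called), and edgeR and DESeq2 on the recovered reads also called 0 members, though DESeq2 called 16 genes lower and 21 higher of 21238. For the same comparison, with DESeq2 and the same threshold, the paper reports far more genes in each direction, with ion transport among its up-regulated clusters. The reason for this difference was not tested. The median difference of the members was 0.30, beside 0.01 over all genes, with 35 of 41 differences above 0, as were 51.6% of the differences over all genes. Among other proximal genes, 14 of 15 brush-border and cytosolic enzymes (median 0.37) and 17 of 21 other transporters (0.26) lay above 0. Of the endocytic machinery genes, 6 of 12 did (0.01). Markers of other kidney cells lay above 0 as well, with medians of 0.52 for the collecting duct (5 of 5 above 0), 0.50 for podocytes (5 of 5), 0.35 for the thick ascending limb and distal tubule (6 of 8) and 0.34 for endothelium (5 of 5). The tubular injury genes lay below 0 (8 of 8, median -0.74), and none of these genes passed an adjusted p below 0.1 in limma without a block. The part of these cells in the difference was not tested. At an unadjusted p below 0.05, 5 members were higher and 0 lower, against 3.37% of all genes higher and 3.35% lower. At that threshold 3 of 5 collecting duct and 3 of 8 thick ascending limb and distal genes were higher as well, and 3 of 8 tubular injury genes were lower. Higher too were 2 of 15 brush-border and cytosolic enzymes and 1 of 21 other proximal transporters. With a block for the digit that opens each mouse's number, the same unadjusted count was 20 higher, 12 of them organic anion and carnitine carriers, and 0 lower, against 7.4% of all genes higher and 6.26% lower. With the block 4 of 5 endothelial, 3 of 5 collecting duct, 4 of 8 thick ascending limb and distal and 2 of 5 podocyte genes were also higher at that threshold, and 7 of 8 tubular injury and 4 of 9 leukocyte genes lower. Also higher there were 7 of 15 brush-border and cytosolic enzymes, 6 of 21 other proximal transporters and 1 of 12 endocytic machinery genes. Of all these, 2 collecting duct genes and 1 enzyme (higher) and 2 tubular injury genes (lower) passed an adjusted p below 0.1 in limma with the block. The meaning of that digit is not given in the sources used here. The 5 without the block were Slc22a28, Slc22a19, Slc22a7, Slc7a12 and Slc9a3.

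Of the 5, 3 are organic anion carriers of the Slc22 family. In Slc22a28, 53.9% of the 50-base stretches also lie in other genes, Slc22a19 among them. Its counts, 1 to 27 reads in the Ade mice, may therefore not be separate from those of Slc22a19. Slc22a19 had 457, 270, 365, 302 and 388 CPM in Con, and 13.1, 49.8 and 170 CPM (lowest, median and highest) in Ade. With the inhibitor it had 71.6, 134 and 243 CPM, so the 2 adenine groups overlapped, with 2 of the 6 Ade + IMC mice above the highest Ade mouse. The difference was 1.56 ± 0.54 (SE; 95% interval 0.39 to 2.72), with an adjusted p of 0.711 (limma) and an exact two-sided permutation p of 0.0325 over 924 splits of the mice. Slc22a7, the carrier OAT2, had 423, 304, 365, 284 and 458 CPM in Con, 7.50, 55.7 and 178 CPM in Ade and 66.1, 144 and 268 CPM in Ade + IMC. Its difference was 1.63 ± 0.66 (exact permutation p = 0.0628). Slc22a28 had 12.8, 6.93, 5.96, 12.3 and 9.02 CPM in Con, 0.114, 0.953 and 3.65 CPM in Ade and 1.25, 4.23 and 4.84 CPM in Ade + IMC, a difference of 1.66 ± 0.59 (exact permutation p = 0.0260). All 5 genes were chosen by their p over the same mice, so the permutation p-values given for them are descriptions and add no independent support.

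Slc7a12 differed by 1.25 ± 0.53, with 26.6, 71.9 and 128 CPM in Ade + IMC (exact permutation p = 0.0693). Slc9a3 differed by 0.52 ± 0.24, with 92.2, 65.0, 61.9, 85.3 and 47.6 CPM in Con, 13.2, 24.7 and 33.8 CPM in Ade and 23.1, 32.2 and 51.4 CPM in Ade + IMC (exact permutation p = 0.0974). The groups overlapped for both genes. With mice compared only with those whose number begins with the same digit, the exact permutation p was 0.0167 for each of Slc22a19, Slc22a7 and Slc22a28, 0.0278 for Slc7a12 and 0.05 for Slc9a3 (180 splits). With that digit as a block, limma called 1 member, Slc22a19, higher (1.71, adjusted p = 0.0627, beside 0.497% of all genes higher), and edgeR with the block did not (adjusted p = 0.102).

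Members of the early and late tubule are set side by side here without a test of their difference. The 8 early members had a median difference of 0.02 between Ade + IMC and Ade, and the 4 tested late members 0.72. No late member lay near that median: Slc5a1 and Slc6a18 were at 0.06 and 0.19, and Slc7a12 and Slc22a7, both named above for their unadjusted p, at 1.25 and 1.63. Every one of the 14 organic anion and carnitine carriers tested was above 0, with a median of 0.63, whereas the sugar carriers had 0.15 and the amino acid carriers 0.22. Being above 0 throughout was shared with the collecting duct, podocyte and endothelial markers given above. Of the brush-border and cytosolic enzymes, 14 of 15 were above 0. Slc5a12 (-0.38), Slc13a1 (-0.24), Slc5a2 (-0.23), Slc7a8 (-0.07), Amn (-0.06) and Slc4a4 (-0.04) were the 6 with a difference below 0, and the 95% interval of each included 0. That of Slc5a2 was -0.83 to 0.37.

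**Figure D4:**
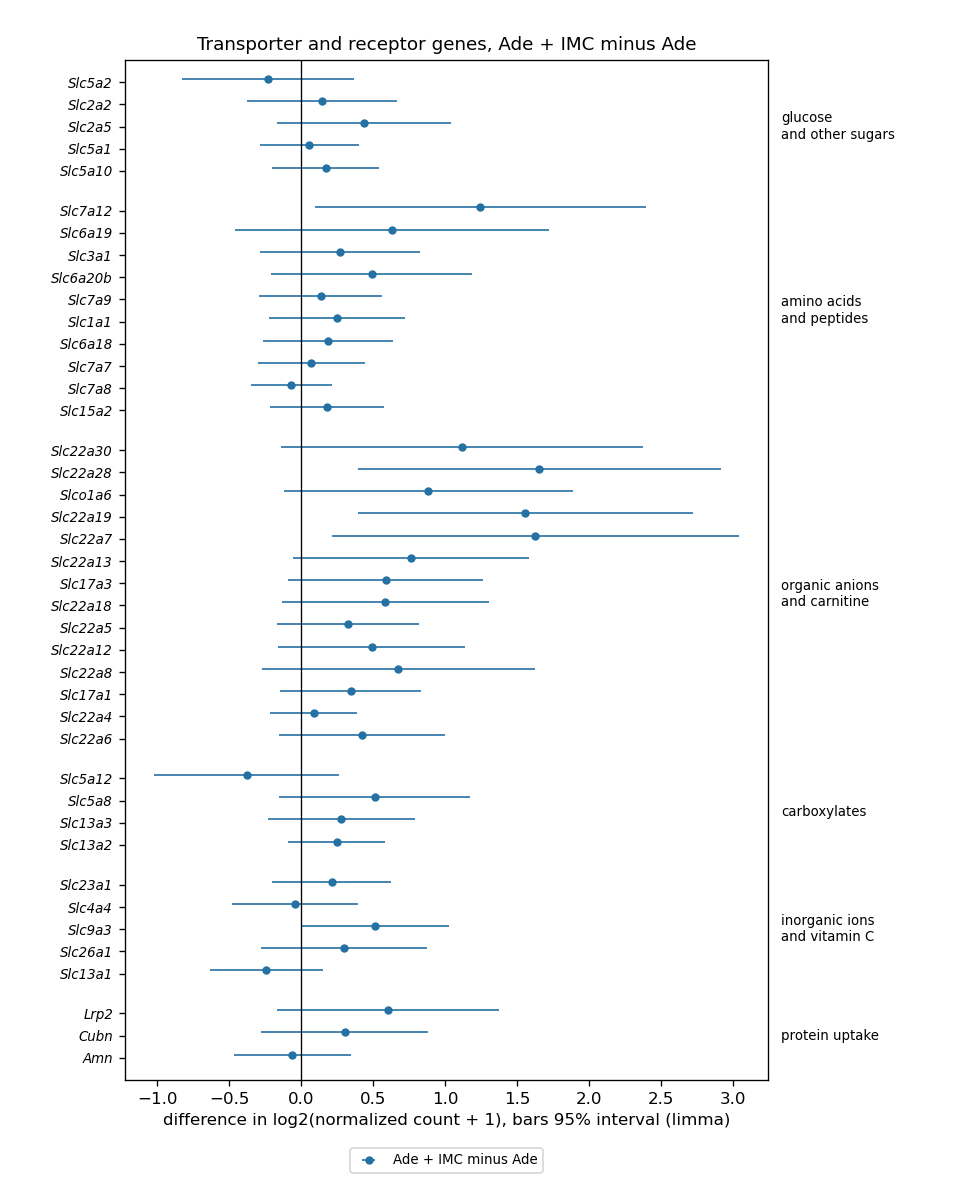
Difference between Ade + IMC and Ade in log2(normalized count + 1) (horizontal axis, bars 95% interval from limma) of 41 members grouped by substrate. Most points lie right of 0, with Slc22a28, Slc22a7 and Slc22a19 at 1.66, 1.63 and 1.56, and most intervals cross 0.

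Further proximal tubule genes are given beside the 32.2% of all genes called lower and 35.1% called higher in Ade. Of 22 other proximal transporters, 21 were tested in Ade, 20 fell and 1 rose. Abcg2, an efflux pump that also carries urate, fell by 1.33 on the log2 scale, and Slc38a3, a glutamine carrier, was the one that rose (0.72). All 15 brush-border and cytosolic enzymes fell, among them Acy1, an aminoacylase, by 1.94 and the peptidase Mme (neprilysin) by 1.66. The transcription factor gene Hnf4a fell by 1.70. Among partners and scaffolds 5 of 6 fell, with Pdzk1, a brush-border scaffold protein, at -1.91. Of 12 genes of the endocytic machinery 9 fell, among them the adaptor Dab2, which binds megalin, by 0.97 and the megalin chaperone Lrpap1 by 1.39, and 2 rose, the receptor Lrp1 by 1.54 and the phosphatase Ocrl by 0.17.

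Markers of other kidney cells are given beside the same shares of all genes. Thick ascending limb and distal genes fell in 5 of 8 cases and rose in 1, and collecting duct genes fell in all 5 tested of 6. Of 5 podocyte genes, 1 rose (Synpo, by 0.34) and 4 were not called, and endothelial genes fell in 3 of 5. All 7 fibroblast genes, all 9 leukocyte genes and all 8 tubular injury genes rose, among them the collagen Col1a1 by 4.20, the lysozyme Lyz2 by 4.64 and the adhesion molecule Vcam1 by 3.97. Their summed levels were 333 to 413 CPM in Con and 2662 to 3279 CPM in Ade for fibroblasts, 98.1 to 130 CPM and 1100 to 1972 CPM for leukocytes, and 454 to 665 CPM and 1418 to 3839 CPM for injury genes. In Ade + IMC they were 2011 to 3040, 952 to 1973 and 1062 to 2477 CPM. Mouse 407 had the lowest sums of the Ade group in all 3 lists, at 2662, 1100 and 1418 CPM. No gene of these lists was at 0 in every mouse of a group, but Krt20, an injury gene, had 3 reads or fewer in every Con mouse. The part of these cells in the fall of the transporters was not tested.

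**Figure D5:**
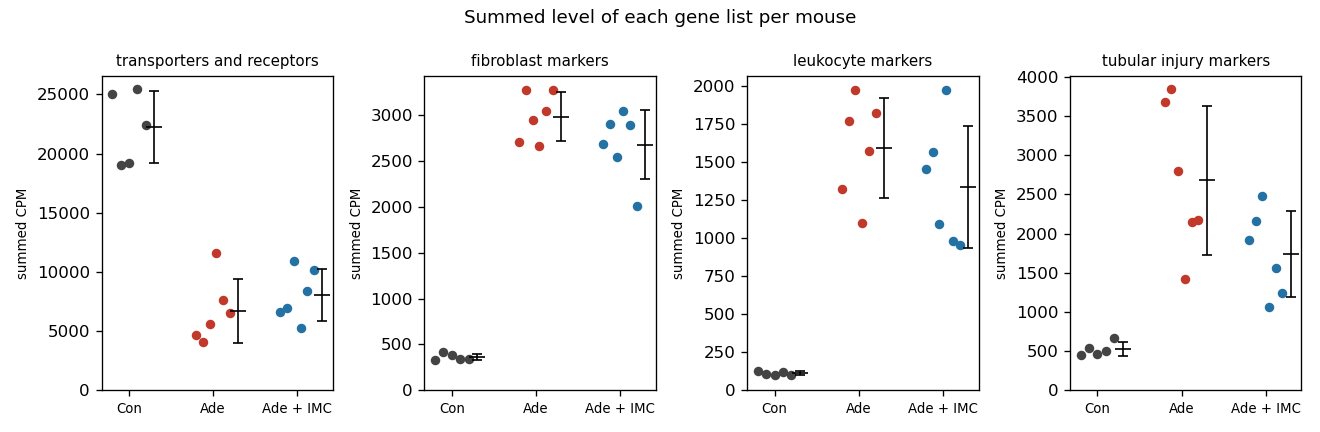
Summed CPM (vertical axis, from 0) of the 42 members and of 3 marker lists in each mouse, with mean and SD. Members run from 19034 to 25485 CPM in Con and 4069 to 11597 CPM in Ade, and the marker lists are higher in every adenine mouse than in any Con mouse.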

How the data were processed

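The authors deposited raw counts per gene (Con and Ade). For Ade + IMC, and again for Ade, they deposited a signal, the count divided by a DESeq2 size factor. The paper names STAR and mm10, and the submitters' processing notes list Trimmomatic 0.39, Bowtie2 2.2.5 and HTSeq 0.9.1 without a role. Strand use is not given in the sources used here. The deposited table of the authors' own comparison holds fold changes and p-values, and only its gene names were used. All 233731 normalized values above 0 (100%) were whole multiples of 1 read (tolerance 0.01), and 0 values of the 6 Ade mice differed between the tables. CPM used the 20634 genes in both tables. TMM factors were 0.830 to 0.906 in Con and 0.994 to 1.15 in the adenine groups.

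Con was compared by edgeR 4.0.16 (quasi-likelihood, filterByExpr) with each adenine group, and Ade + IMC with Ade by limma 3.58.1 (mean-variance trend, pseudocount 1, log2 scale) where the mean over the 12 mice reached 10. DESeq2 1.42.0 was an alternative (R 4.3.3). Calls used Benjamini-Hochberg adjusted p below 0.1, fitted over all genes. The tests were tested on simulated data. Named in full were, per substrate, the member highest in Con, the largest fall and the smallest change, with members at an unadjusted p below 0.05 between the adenine groups. Genes of other lists were taken from those with the smallest adjusted p in Ade in each direction, at most 4 a list. Members and lists were chosen with earlier results of these data known. Lengths and shared 50-base stretches came from GENCODE on GRCm38. The results of 1 gene of the other lists and of 1 motif are not reported here.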

Additional observations from a re-analysis of the deposited data

Results flagged for a closer look

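Over 42 members and 7 sums in 3 groups, 147 groups of values were searched for a sample far from the rest, 10 were found, and about 7 are expected by chance at 1 in 20. In Ade, mouse 407 was far above the others in Lrp2 (1801 CPM, others 364 to 814), Cubn (467 CPM, others 144 to 248), the sum of the protein uptake genes (2342 CPM, others 550.2 to 1122), Slc7a12 (126 CPM, others 10.6 to 38.9) and Slc17a3 (287 CPM, others 74.0 to 148). In Ade + IMC, mouse 310 was far above the others in Slc13a1 (730 CPM, others 265 to 433) and Slc9a3 (51.4 CPM, others 23.1 to 33.0). In Con, mouse 403 was far above the others in Slc22a18 (449 CPM, others 325 to 350) and Slc13a2 (153 CPM, others 105 to 118), and mouse 201 far below them in Slc7a9 (193 CPM, others 214 to 222).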

How the results depend on the processing

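Members called lower than Con numbered 40 or 41 under every alternative run, in Ade and in Ade + IMC, and 0 were called higher; the median log2 change ran from -1.83 to -1.51 in Ade and from -1.45 to -1.24 in Ade + IMC. Slc13a1 was the named gene that lost its call, in Ade also in the fit of all 17 mice (adjusted p = 0.154, edgeR) and in Ade + IMC without Con mouse 302 (adjusted p = 0.129). Between Ade + IMC and Ade, 0 members were called at an adjusted p below 0.1 and 1 with the first digit as a block (limma), and leaving out each mouse gave 0. At an unadjusted p below 0.05, 5 were higher, and 20 with the block. The median difference there ran from 0.20 to 0.50 without single mice, highest without mouse 407, and was 0.57 without mice 311, 407 and 412, a setting chosen after seeing the data. Slc4a4 and Amn, both near 0, changed sign with the block or without mouse 407 or 311. The exact permutation p of Slc9a3 within the first digit was 0.0444 at a pseudocount of 0.5. Slc7a13 and Slco1a1 had few reads even in the deepest library (7 and 1 in Con mouse 201), so neither was tested. Replicate numbers follow accession order only and paired no mice, and the block used the first digit of the mouse number.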
